A study of Homo sapiens with 12 samples.

Results

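The mitochondrial ribosomal protein genes were examined, which are the nuclear genes for the proteins of the ribosome inside mitochondria. They were taken as every row of the count table whose gene symbol is MRPL or MRPS followed by a number and, at most, a letter from A to C. This gave 78 of the 19447 symbols, 49 named for the large subunit (MRPL) and 29 for the small subunit (MRPS). The rule read only symbols and no measured value, but it was set with earlier results of these data known. Messenger RNA was sequenced after poly(A) enrichment in 12 libraries, 3 in each of 4 groups. The BCR-ABL-positive line K562 comes from a chronic myeloid leukemia. K562/IM is 1 line derived from it by raising the dose of the kinase inhibitor imatinib stepwise, and it was kept in 5 µM imatinib. The groups were untreated K562, K562 with 6 µM lycorine (K562+L), K562/IM without lycorine, and K562/IM with 6 µM lycorine (K562/IM+L). Whether imatinib was in the medium of the sequenced K562/IM cells is not given in the sources used here. An effect of imatinib in the culture and the resistant state therefore cannot be told apart in K562/IM against K562. Lycorine is an alkaloid of the Amaryllidaceae, and for how long the sequenced cells were exposed is not given in the sources used here. Nothing in the labels says whether the 3 libraries of a group came from separate cultures, so that p-values measure only the spread between libraries.

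The label of 1 group is in doubt. The sample labels call the K562/IM+L libraries G2, whereas the figures of the study call that group G6, and these are therefore named the libraries labelled K562/IM+L. Every direction drawn from them rests on that label. All 10 erythroid and leukemic marker genes fixed for K562 were counted in every library, whereas CD3E, MS4A1, CD14, MPO and ALB did not exceed 48 counts in any. COL1A1 reached 512 counts, and the epithelial marker EPCAM was counted 4006 to 11999 times in every library. CDKN2A and CDKN2B, which K562 has lost, stood at 0 to 5 counts. All 10 markers were higher in the libraries labelled K562/IM+L than in K562/IM, and the embryonic globin HBZ stood at 97.9 CPM in K562/IM and 11151 CPM in the labelled group. CPM is the count scaled to a common library size after normalization. In RNA from whole cultures, a lower share of cells in one state and less of a transcript per cell cannot be told apart.

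The mitochondrial ribosome translates the few proteins that the mitochondrial genome still encodes, all of them membrane subunits of the respiratory chain and ATP synthase. Its RNA is made in the mitochondrion, whereas all of its proteins are encoded in the nucleus, made by cytosolic ribosomes and imported. Of the 78 proteins, 45 have relatives in bacterial ribosomes and 31 exist in mitochondria alone, and MRPL55 and MRPS36 were put in neither set. MRPS30 and MRPS18A lie in the large subunit in spite of their symbols, and MRPS36 is now known as a component of the 2-oxoglutarate dehydrogenase complex. The transcripts made from the mitochondrial genome were not analysed here.

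The 78 genes lie on 21 chromosomes, with at most 8 of them on any one, as on chromosomes 1, 2 and 17. Their promoters, from 250 bases before to 50 bases after the start in RefSeq on GRCh38.p14, were available for 69 of the 78. Motifs named for factors that act on nuclear genes of mitochondria were searched on both strands. The motif AAGATGGCG of YY1, which contains an ATG, was in 13 of the 69 promoters (18.8%) and in 1.75% of all 35116 promoters of the table, or 2.81% of those whose symbol is in the count table. In 10 of the 14 places it lay after the start of transcription. The motif CCGGAAGT of the ETS family, to which GABPA belongs, was in 11 promoters (15.9%), against 4.14% of all promoters and 6.34% of those in the count table. The motif GCGCATGCG of NRF1 was in 3 (4.35%, against 1.92% and 2.75% in the same order). The E-box CACGTG was in 6 (8.7%, against 7.26% and 8.92%), the GC box GGGCGG in 42 (60.9%, against 45% and 59.3%) and TGACGTCA of CREB in 0 (against 1.85% and 2.62%). The GC box and the E-box were thus about as frequent as in promoters of the count table. None of these letter strings contains another, and a match says only that the letters are in the window.

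The stretches below are shown because they belong to genes whose transcripts the comparisons turn on, with 30 bases around the motif and the YY1 letters in capitals. They lie at chr6:42217833-42217862 (minus strand) for MRPS10, at chr7:43869479-43869508 (minus strand) for MRPS24, at chr5:44808950-44808979 (plus strand) for MRPS30, at chr12:93467512-93467541 (plus strand) for MRPL42 and at chr9:101398576-101398605 (minus strand) for MRPL50. Each is written 5′ to 3′ on the strand of its gene.
MRPS10: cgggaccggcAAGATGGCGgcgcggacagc
MRPS24: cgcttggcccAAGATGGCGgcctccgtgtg
MRPS30: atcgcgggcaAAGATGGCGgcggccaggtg
MRPL42: ggattgaaacAAGATGGCGggttcgtggtg
MRPL50: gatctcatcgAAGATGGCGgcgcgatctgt

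The ETS motif lay before the start in all but 1 of its 13 places, and its letters are in capitals in the next stretches. They lie at chr3:131502985-131503014 (minus strand) for MRPL3, at chr1:1407319-1407348 (minus strand) for MRPL20, at chr3:179604659-179604688 (minus strand) for MRPL47 and at chr17:50373174-50373203 (minus strand) for MRPL27.
MRPL3: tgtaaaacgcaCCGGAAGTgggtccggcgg
MRPL20: cgaccttcgccCCGGAAGTatcgcaggggc
MRPL47: ggcttgagacgCCGGAAGTgacgctatcgt
MRPL27: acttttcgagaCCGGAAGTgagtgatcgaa

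All 78 genes passed the filter on low counts in every comparison. Per kilobase of exon, MRPS34 of the small subunit was highest in K562 with 180 ± 36.9 CPM per kilobase (SD, n = 3), and it ranked highest in all 4 groups. MRPL12, a stalk protein that recruits translation factors, followed with 159 ± 33.6 and MRPL14 with 134 ± 52.7. The order of these 3 was not tested. MRPS33 was lowest with 4.82 ± 1.32 CPM per kilobase, next to MRPL46 with 5.24 ± 0.726 and MRPL43 with 8.49 ± 1.32. The median over the 78 genes was 34.6 CPM per kilobase in K562, 26.3 in K562+L, 22.2 in K562/IM and 21.9 in the libraries labelled K562/IM+L. Lengths are those of all annotated exons joined, and with the longest transcript these medians were 50.8, 41.0, 31.4 and 32.1.

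Summed over the 78 genes, the level in K562 was 6708, 7710 and 8403 CPM. K562+L held 6823, 7242 and 6558 CPM, which overlaps with K562. K562/IM held 4947, 5144 and 4931 CPM, below every library of K562 and of K562+L. In the group labelled K562/IM+L the sums were 5906, 6046 and 4991 CPM, also below every K562 library, and they overlap with K562/IM. As a share of all counts, the genes took 0.729% ± 0.0636 (SD, n = 3) in K562, 0.670% ± 0.0331 in K562+L, 0.548% ± 0.0127 in K562/IM and 0.550% ± 0.0357 in the labelled group. The total counts of the libraries were 75093844 to 107344598.

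**Figure D1:**
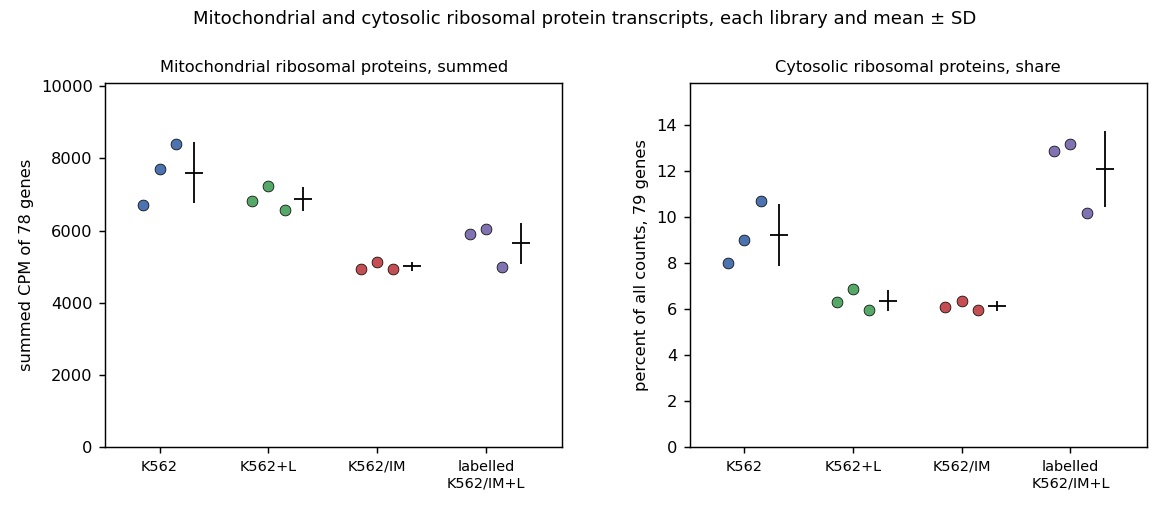
Left, summed CPM of the 78 mitochondrial ribosomal protein genes, and right, percent of all counts taken by 79 cytosolic ribosomal protein genes, by group as labelled. Points are libraries and bars are mean ± SD (n = 3). The mean mitochondrial sum is lowest in K562/IM (4931 to 5144 CPM), which overlaps with the labelled K562/IM+L libraries (4991 to 6046 CPM). As a percent of all counts, the measure on the right, the mitochondrial genes took a mean of 0.548 in K562/IM and 0.550 in the labelled group. The mean cytosolic share is highest in the libraries labelled K562/IM+L (10.2 to 13.2%, which overlaps with K562 at 8.02 to 10.7%).

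In K562/IM, transcripts of the mitochondrial ribosomal proteins were lower than in K562 almost throughout. The question of this comparison is how the imatinib-resistant line, which was kept in imatinib, differs from its parent. Of the 78 genes, 68 were lower and 0 higher (edgeR's quasi-likelihood test, Benjamini-Hochberg adjusted p under 0.05 over all genes tested). Of all 13406 genes tested, 27.1% were lower and 30.1% higher. No member was higher at an unadjusted p under 0.05 either, and DESeq2 gave 70 lower and 0 higher. The median log2 fold change was -0.63, against 0.042 over all genes. Among 3445 genes of like length and level, 41.4% were lower and 16.8% higher, with a median of -0.16. With scaling to the total count alone, which moved the median of all genes by 0.19 on the log2 scale, 57 members were lower and 2 higher, and the genes overall went from 4029 higher and 3632 lower to 5430 higher and 2447 lower.

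In the large subunit 43 of 49 genes were lower (median -0.67) and in the small subunit 25 of 29 (median -0.62). Of the 45 proteins with bacterial relatives 40 were lower, and of the 31 that exist in mitochondria alone 26 were. Of the 45 members with a GC content under 50%, 39 were lower, and of the 33 at or above it 29 were. The drop went past a log2 fold change of 1 in 9 genes, where 19.1% of all genes tested passed that size in either direction.

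MRPS17, a ribosomal RNA-binding protein of the small subunit, was among the most reduced. It stood at 57.8, 64.7 and 72.9 CPM in K562 and at 27.5, 28.9 and 26.5 CPM in K562/IM, with no overlap. Its log2 fold change was -1.24 ± 0.10 (SE, adjusted p = 4.3e-05). MRPS17 lies on chromosome 7 of GRCh38 from 55951819 to 55956501, and 583 exonic bases of it are shared on the same strand with NIPSNAP2 or an unnamed gene.

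MRPL48 of the large subunit, found in mitochondria alone, lies on chromosome 11 from 73787316 to 73865133. It stood at 41.8, 42.2 and 49.6 CPM in K562 and at 19.2, 20.8 and 19.0 CPM in K562/IM. The groups lay far apart, and the log2 fold change was -1.18 ± 0.095 (adjusted p = 4.2e-05).

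The other genes past this size spanned both kinds of protein. Of those with bacterial relatives, MRPL20 fell by 1.16 on the log2 scale, MRPL21 by 1.15 and MRPL14 by 1.25. MRPL14 was spread widely in K562, where its libraries held 95.2, 104 and 187 CPM, against 66.2, 53.2 and 43.2 CPM in K562/IM. MRPL1, part of the stalk beside the exit site for transfer RNA, had a log2 fold change of -1.0. Of those of mitochondria alone, MRPL54 had one of -1.17. MRPL58, a peptidyl-tRNA hydrolase built into the large subunit that frees stalled ribosomes, had one of -1.01. In the small subunit, MRPS24 had a log2 fold change of -1.05, and it shares 606 exonic bases on the same strand with the annotated read-through gene URGCP-MRPS24.

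Smaller drops were as clear where libraries lay close together. MRPL3, a large-subunit protein near the site of peptide bond formation (chromosome 3, 131462212 to 131502983), held 177, 181 and 174 CPM in K562 and 110, 112 and 113 CPM in K562/IM (log2 fold change -0.67 ± 0.063, adjusted p = 9.3e-05). MRPS30 had a log2 fold change of -0.94, MRPL18 of -0.85, MRPL39 of -0.80 and MRPL45, which anchors the ribosome to the inner membrane, of -0.56. In each of them no K562/IM library reached a K562 library. Among all members, 67 were lower in K562/IM with no overlap, so this does not set the named genes apart. How many of all genes tested had no overlap was not counted, so that 67 is no result about the members.

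The 10 genes that did not pass were MRPL10, MRPL16, MRPL24, MRPL52, MRPL53, MRPL57, MRPS14, MRPS25, MRPS27 and MRPS28, chosen for mention after their values were seen. MRPS25 was level across the study, with 108, 103 and 108 CPM in K562, 106, 107 and 107 CPM in K562/IM and 103 to 118 CPM over all 12 libraries. Its exons share 1197 bases with NR2C2 on the opposite strand, and whether the counting used strand is not given in the sources used here. MRPL16 held 129, 146 and 163 CPM in K562 and 154, 164 and 170 CPM in K562/IM, and these overlap.

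**Figure D2:**
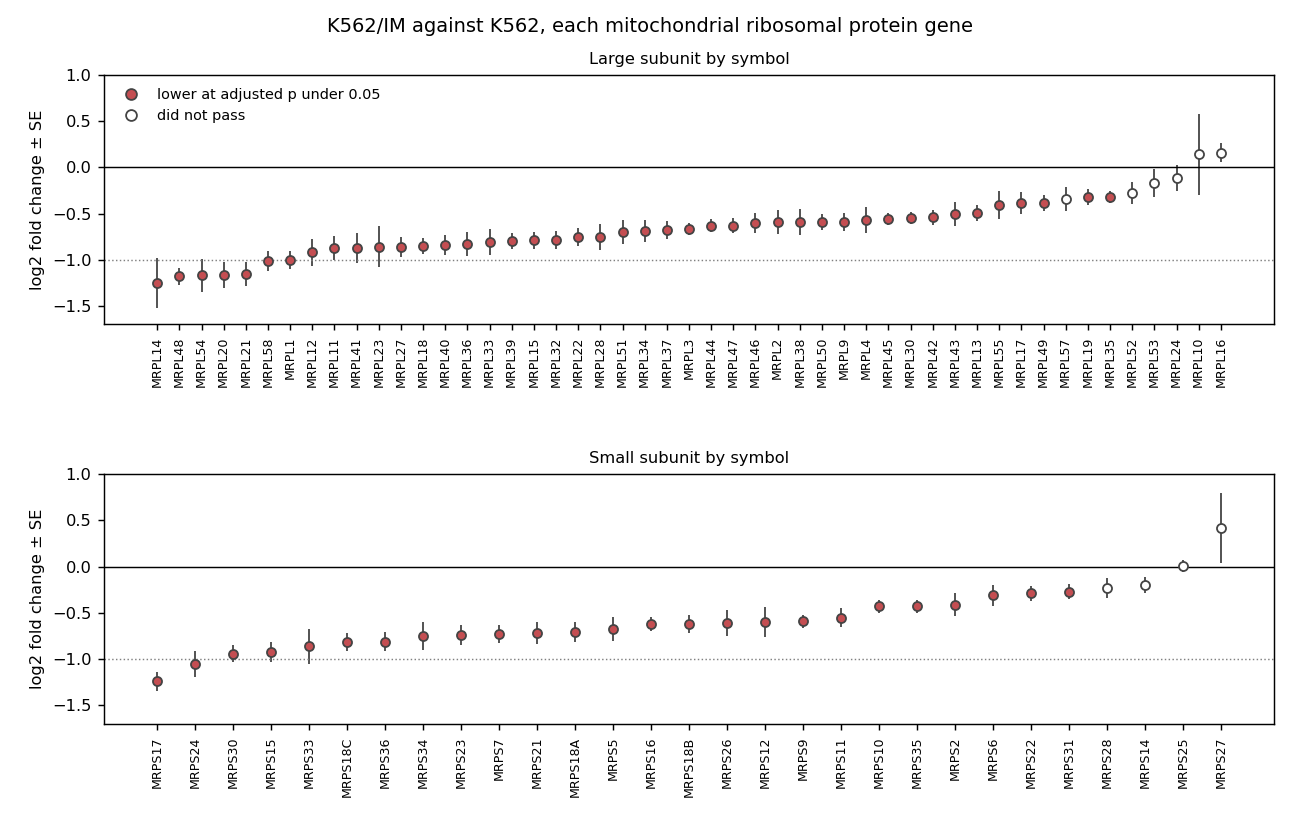
Log2 fold change of each mitochondrial ribosomal protein gene in K562/IM against K562 (vertical axis, ± SE, n = 3 libraries a group), with genes in order of size for each subunit. Filled points passed an adjusted p under 0.05, and the dotted line is a log2 fold change of -1. Filled points are 68 of 78 and all lie below 0.

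In K562, lycorine moved some of these transcripts down and a few up. This comparison shares the K562 libraries with the one above. Of the 78 genes, 24 were lower and 5 higher in K562+L, where 19.0% of the 12927 genes tested were lower and 18.2% higher. No member passed a log2 fold change of 1, which 6.39% of all genes did, and the changes ran from -0.81 to 0.62. The median was -0.19, against -0.00012 over all genes and -0.039 over the genes of like length and level, of which 24.4% were lower and 17.5% higher. Large and small subunits gave 16 of 49 and 8 of 29 lower. The count of lower genes rests on single libraries. It was 5 without K562+L replicate 1, 7 without K562+L replicate 3 and 10 without K562 replicate 2, and 35 without K562 replicate 1. The count of higher genes was 3 without K562 replicate 2, 2 without K562+L replicate 2 and 3 without K562+L replicate 3.

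MRPS10, a small-subunit protein with a bacterial relative (chromosome 6, 42206801 to 42217865), was the clearest of the genes that rose. It held 136, 140 and 132 CPM in K562 and 186, 209 and 197 CPM in K562+L. The groups did not overlap, and the log2 fold change was 0.54 ± 0.081 (adjusted p = 0.00256), or 1.45-fold. MRPS31, a small-subunit protein of mitochondria alone, held 34.6, 35.9 and 34.2 CPM in K562 and 46.9, 57.7 and 55.9 CPM in K562+L (0.62 ± 0.10, adjusted p = 0.00343). The other 3 were large-subunit proteins with bacterial relatives, MRPL1 (0.45), MRPL15 (0.39) and MRPL3 (0.31). MRPL3 lost its call in 6 of the alternatives, MRPL15 in 5 and MRPL1 in 4.

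Among the genes that fell was MRPS24, which held 104, 121 and 156 CPM in K562 and 74.1, 80.7 and 61.9 CPM in K562+L (log2 fold change -0.81 ± 0.16, adjusted p = 0.00731). MRPS6 held 78.9, 95.1 and 105 CPM in K562 and 54.8, 65.3 and 52.9 CPM in K562+L (-0.69 ± 0.13, adjusted p = 0.00618). No treated library reached an untreated one in either gene. MRPL51 had a log2 fold change of -0.70, MRPS21 of -0.63, MRPL34 of -0.61, MRPS28 of -0.61, MRPS15 of -0.48, MRPS7 of -0.47, MRPL18 of -0.44 and MRPS14 of -0.38. All 8 kept their libraries apart from those of K562. The lower genes here were named for a small p, which makes such separation likely. Among all members, 27 were lower in K562+L with no overlap, so separation is no added support for those named. The number of all genes tested with such separation was not counted. The call was lost in 6 of the alternatives for MRPS14, in 5 each for MRPS7, MRPS15 and MRPS28, and in 3 for MRPL34.

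The change with lycorine went with the base composition of the transcripts. Among the 45 members with a GC content under 50%, 11 fell and 5 rose (median -0.15), and among the 33 at or above it 13 fell and 0 rose (median -0.36). Across the 78 members the log2 fold change had a Spearman rho of -0.31 with GC content and 0.30 with the longest transcript's length. Across 12665 genes these were -0.20 and 0.33. The same features also separated libraries of 1 group. In K562 replicate 1 the members stood at a median of -0.19 on the log2 scale from their group mean, with a rho of -0.71 against GC content, and in K562 replicate 3 at 0.17, with a rho of 0.67. The part of this axis in the change with lycorine was not tested. A fit with the axis as a covariate gave 36 lower and 7 higher members. That covariate was built from deviations from the group means, so that it cannot take out a difference between groups.

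The libraries labelled K562/IM+L differed from K562/IM in both directions. The question is what lycorine does to the resistant line. Of the 78 genes, 35 were higher and 17 lower, where 33.2% of the 13727 genes tested were higher and 33.6% lower. The median log2 fold change was 0.19, against -0.0069 over all genes and 0.031 over genes of like length and level, of which 35.9% were higher and 32.1% lower. Scaling to the total count alone moved the median of all genes by -0.19, and then 22 members were higher and 22 lower, with a median of 0.00, beside 3616 higher and 5747 lower genes overall with a median of -0.19. Past a log2 fold change of 1 were 4 higher genes and 1 lower gene, where 28.5% of all genes were.

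MRPL54 of the large subunit (chromosome 19, 3762664 to 3768575) had the highest fold change. It held 11.4, 13.2 and 10.7 CPM in K562/IM and 39.2, 34.8 and 22.0 CPM in the labelled libraries, a log2 fold change of 1.46 ± 0.21 (adjusted p = 0.00055) or 2.76-fold. MRPS33 of the small subunit held 13.0, 15.4 and 13.5 CPM in K562/IM and 37.3, 34.6 and 29.3 CPM in the labelled libraries (1.29 ± 0.12, adjusted p = 5.1e-05). MRPS36 had a log2 fold change of 1.08 and MRPL40 of 1.0. MRPL54, MRPS33 and MRPL40 belong to mitochondria alone.

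The other rises named here were smaller. MRPL45, the membrane anchor, held 70.7, 72.6 and 72.3 CPM in K562/IM and 129, 126 and 114 CPM in the labelled libraries (0.80 ± 0.070, adjusted p = 4.7e-05). MRPS24 had a log2 fold change of 0.93, MRPL48 of 0.89, MRPS15 of 0.86, MRPL27 of 0.81, MRPS9 of 0.80, MRPL37 of 0.62 and MRPS10 of 0.54. No labelled library overlapped with K562/IM in any of these genes. Among all members, 32 were higher in the labelled libraries with no overlap, so this does not set the named genes apart. The same count over all genes tested was not made.

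Among the 17 lower genes, MRPL24, which sits at the mouth of the exit tunnel, held 47.0, 41.5 and 41.7 CPM in K562/IM and 23.2, 23.3 and 17.1 CPM in the labelled libraries (log2 fold change -1.01 ± 0.13, adjusted p = 0.00033). MRPL3 held 110, 112 and 113 CPM in K562/IM and 80.6, 82.5 and 78 CPM in the labelled libraries (-0.45 ± 0.060, adjusted p = 0.00040). MRPS12, a protein of the decoding site, had a log2 fold change of -0.64, MRPS2 of -0.61, MRPL16 of -0.56, MRPL47 of -0.48, MRPS35 of -0.44, MRPL19 of -0.38, MRPL50 of -0.31 and MRPS22 of -0.30. By subunit, 21 of 49 large-subunit and 14 of 29 small-subunit genes were higher, and 11 and 6 were lower.

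**Figure D3:**
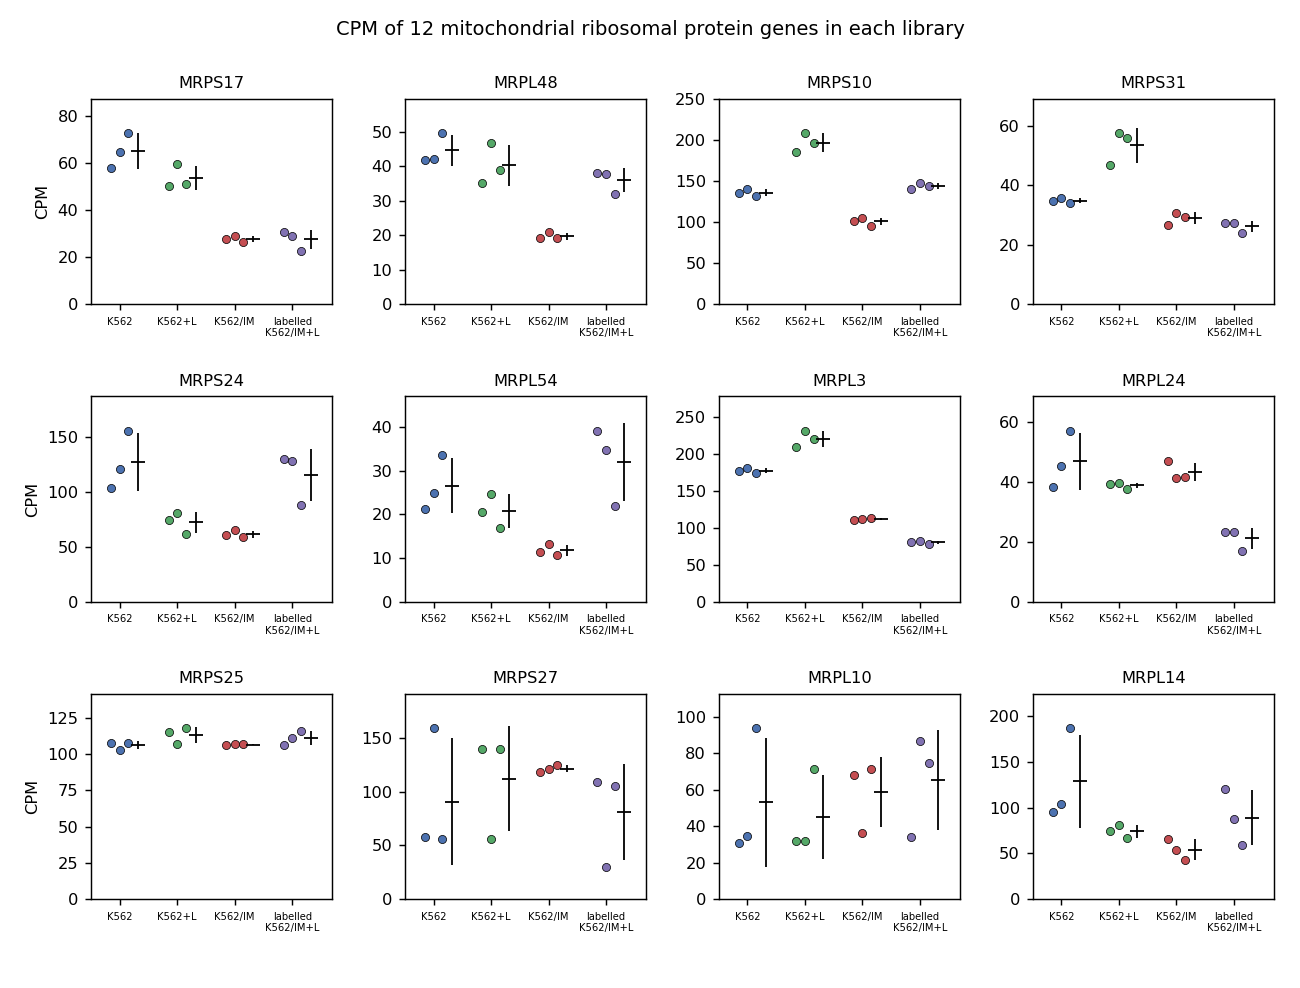
CPM (vertical axes, from 0) of 12 mitochondrial ribosomal protein genes in each library, by group as labelled. Points are libraries and bars are mean ± SD (n = 3). MRPS17 and MRPL48 are low in K562/IM, MRPS10 and MRPS31 are high in K562+L, MRPS25 stays between 103 and 118 CPM, and MRPS27 and MRPL10 differ several-fold between libraries of 1 group.

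Whether lycorine acted differently in K562 and K562/IM was asked with an interaction term in a fit of all 12 libraries. The effect was higher in the resistant line, as labelled, for 35 of the 78 genes and lower for 9, where 29.9% and 31.7% of the 13995 genes tested were. The median difference was 0.34 on the log2 scale, against -0.02 over all genes. Among the 3445 genes of like length and level, 35.8% were higher and 32.2% lower, with a median of 0.051. Under scaling to the total count, 28 were higher and 17 lower, and the genes overall went from 4191 higher and 4437 lower to 3483 higher and 5182 lower, with a median of -0.21. In the large subunit 24 of 49 were higher and in the small subunit 11 of 29.

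A difference over 1 in size was reached by 12 genes, all of them positive, with the largest in MRPL54 (1.8), named after its value was seen. MRPS24 differed by 1.72 ± 0.24 (adjusted p = 8.0e-05). It held 130, 128 and 88.1 CPM in the labelled libraries and 60.3, 65.2 and 59.1 CPM in K562/IM, whereas in K562 it went down with lycorine. MRPS36 differed by 1.47, MRPS15 by 1.32, MRPS9 by 0.87 and MRPL45 by 0.77. In the opposite direction, MRPL3 rose in K562+L and fell in the labelled libraries (difference -0.79 ± 0.084, adjusted p = 9e-06). MRPS31 differed by -0.76, MRPL24 by -0.76, MRPS2 by -0.75 and MRPS35 by -0.51. MRPS10 had the same log2 fold change of 0.54 in both lines, and its difference was -0.02.

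Set side by side, the lycorine comparisons of the lines use separate libraries. Of the 24 genes lower in K562+L, 11 were higher between K562/IM and the labelled libraries, 4 were lower in both comparisons and 9 did not pass in the latter. The share of 11 in 24 is near the 44.9% of all 78 genes that were higher there. Among all genes tested in both comparisons, 2457 were lower in K562+L. Of these, 48.0% were higher in the labelled libraries and 25.8% lower. Of the 5 genes higher in K562+L, 1 was also higher in the labelled libraries, 1 was lower and 3 did not pass. Among all genes, 2346 were higher in K562+L, of which 22.4% were higher in the labelled libraries and 46.6% lower. The log2 fold changes of the 78 genes had a Spearman rho of -0.18 and a Pearson r of -0.19, given as a description, since genes of 1 library share its depth and composition.

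**Figure D4:**
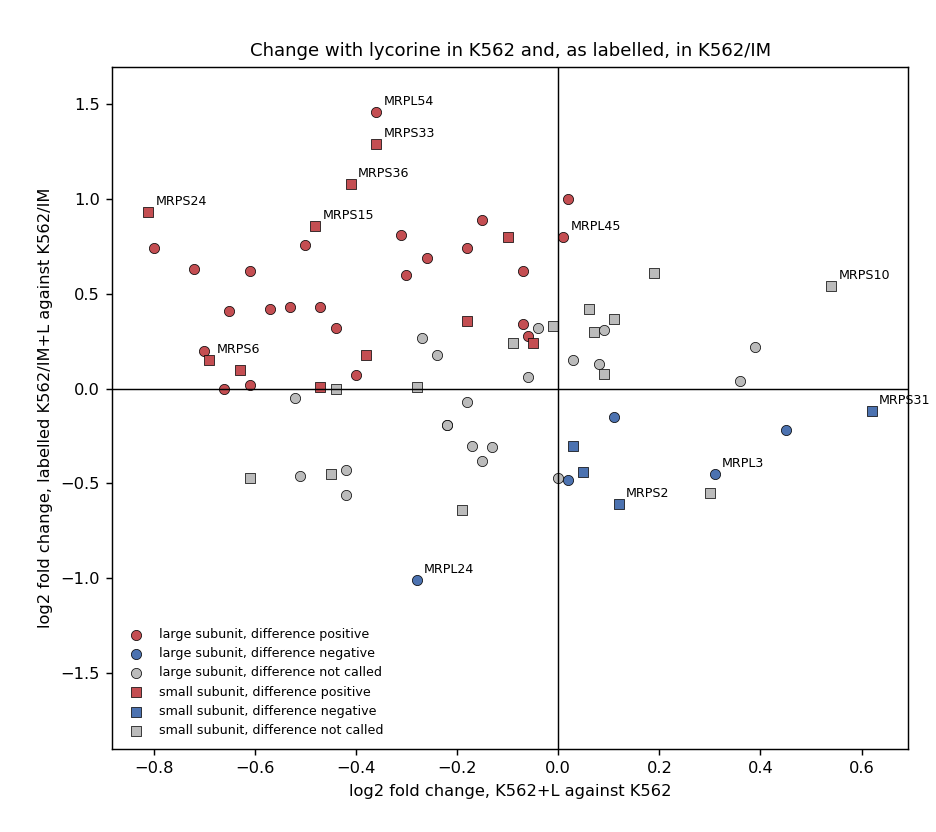
Log2 fold change with lycorine in K562 (horizontal axis) and, as labelled, in K562/IM (vertical axis) for the 78 genes. Circles are large-subunit and squares small-subunit genes, and colour gives whether the difference between the lines passed an adjusted p under 0.05 (35 positive, 9 negative). Most genes left of 0 lie above 0 on the vertical axis, and MRPL3 and MRPL24 lie below it.

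Against untreated K562, the libraries labelled K562/IM+L had 46 of the 78 genes lower and 0 higher, where 27.8% of the 13307 genes tested were lower and 28.2% higher. This comparison shares the K562 libraries with the others and the labelled libraries with the one above. No member was higher at an unadjusted p under 0.05, and DESeq2 gave 48 lower and 0 higher. With upper-quartile scaling, which moved the median of all genes by 0.15, 37 were lower and 4 higher, and the genes overall went from 3753 higher and 3693 lower to 4564 higher and 2883 lower. The median was -0.50, against 0.02 over all genes. Among the 3445 genes of like length and level, 39.9% were lower and 22.2% higher, with a median of -0.16. A log2 fold change below -1 was reached by 10 genes, where 23.8% of all genes passed that size in either direction.

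MRPL3 was the most certain of these. It held 177, 181 and 174 CPM in K562 and 80.6, 82.5 and 78 CPM in the labelled libraries (log2 fold change -1.17 ± 0.078, adjusted p = 3.3e-05). MRPL36 held 41.3, 53.3 and 57.0 CPM in K562 and 22.8, 22.7 and 17.0 CPM in the labelled libraries (-1.30 ± 0.17, adjusted p = 0.00064). MRPS12 and MRPS17 had log2 fold changes of -1.27, MRPL1 of -1.26, MRPL24 of -1.17, MRPL47 of -1.15, MRPS26 of -1.10, MRPL4 of -1.08 and MRPS2 of -1.06. Of the 45 proteins with bacterial relatives 30 were lower, and of the 31 of mitochondria alone 16 were. Below that size, MRPL50 had a log2 fold change of -0.95, MRPS35 and MRPL32 of -0.91, MRPL42 of -0.88, MRPL30 of -0.79 and MRPL19 of -0.75.

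**Figure D5:**
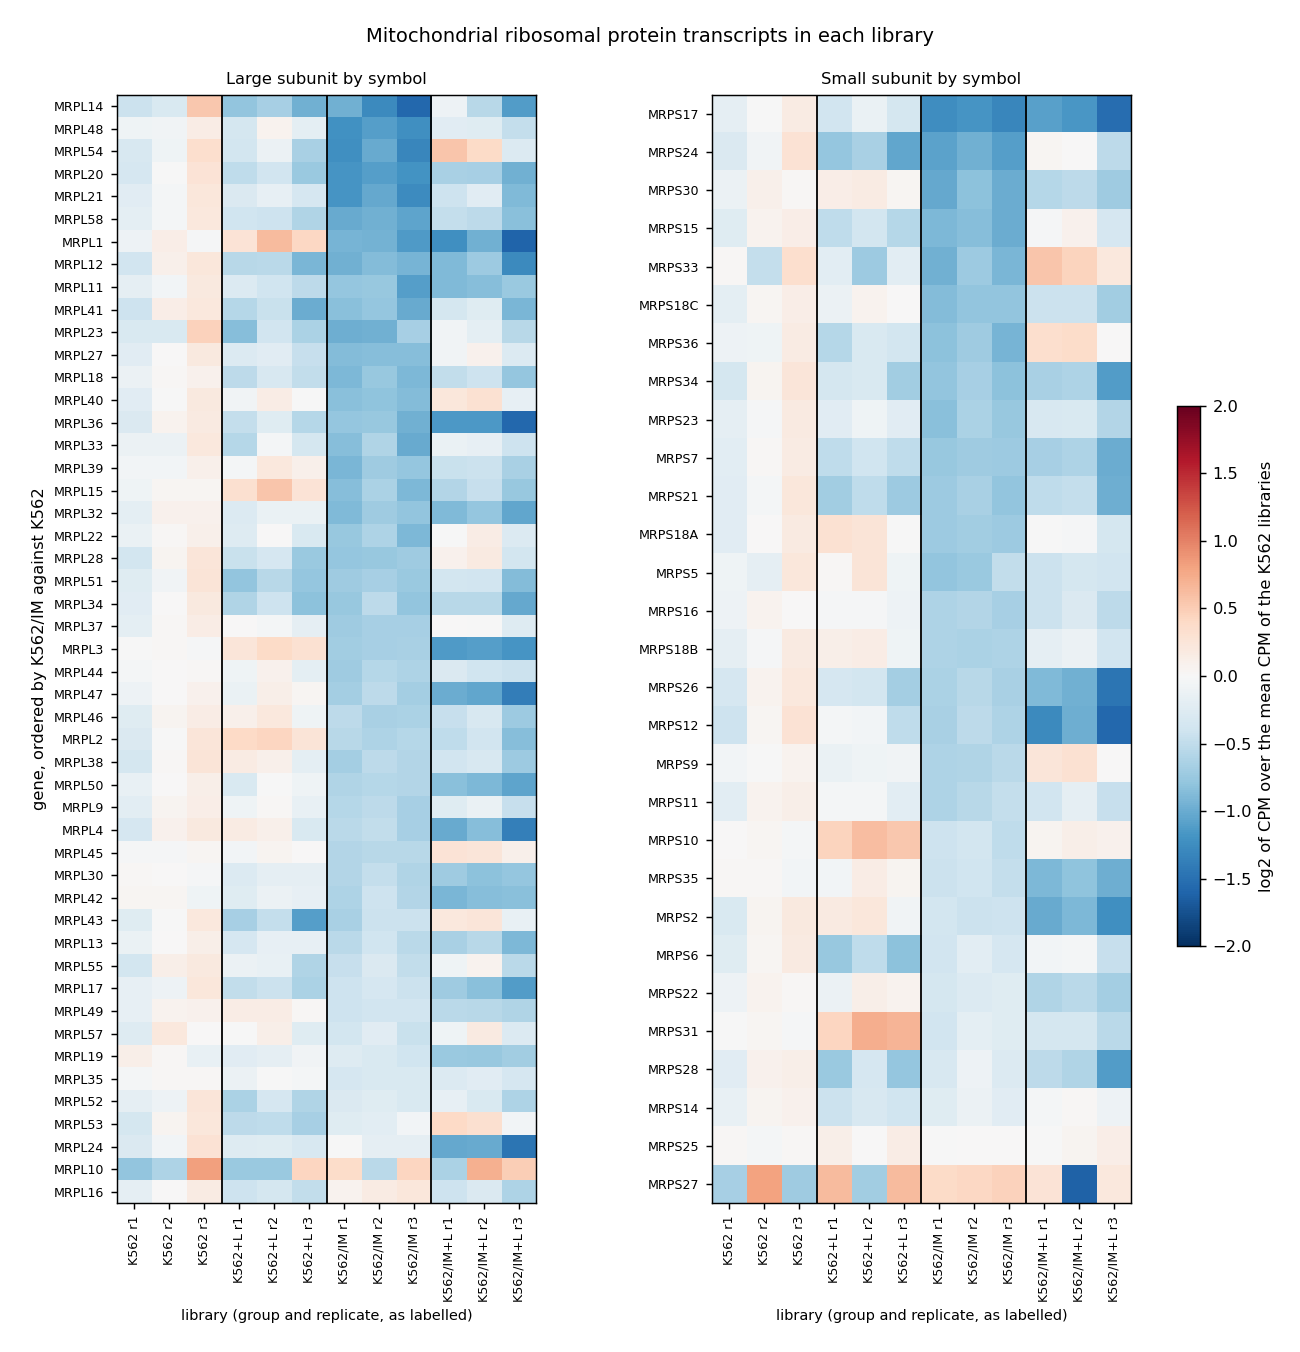
Log2 of the CPM of each gene (rows, by subunit) in each library (columns, r for replicate) over the mean CPM of the 3 K562 libraries. Rows are in order of the log2 fold change of K562/IM against K562. The K562/IM columns are blue in nearly all rows (68 genes lower), and the labelled K562/IM+L columns hold both colours against them.

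A few genes differed more between libraries of 1 group than between groups. MRPS27, a small-subunit protein with pentatricopeptide repeats, held 57.4, 159 and 55.5 CPM in K562, 140, 55.8 and 140 CPM in K562+L, 118, 121 and 125 CPM in K562/IM and 109, 29.6 and 105 CPM in the labelled libraries. In each of 3 groups its libraries fell on either side of a gap of more than 2-fold. MRPL10 of the stalk base held 30.8, 34.5 and 93.8 CPM in K562 and 31.6, 31.6 and 71.6 CPM in K562+L. It held 68.2, 36.4 and 71.1 CPM in K562/IM and 34.3, 86.6 and 74.7 CPM in the labelled libraries. Neither gene passed the test in any comparison. The median coefficient of variation of the 78 genes within a group was 13.2% in K562, 9.19% in K562+L, 5.02% in K562/IM and 13.1% in the labelled group.

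Mitochondrial ribosomal proteins with other symbols were lower in K562/IM as well. All 5 that were tested (DAP3, PTCD3, AURKAIP1, CHCHD1 and GADD45GIP1) were called lower there, where 27.1% of all genes tested were. DAP3, a GTP-binding protein of the small subunit, stood at 300 ± 10.1 CPM in K562, 298 ± 15.0 in K562+L, 213 ± 7.19 in K562/IM and 355 ± 22.6 in the labelled libraries (SD, n = 3). Its log2 fold change was -0.50 in K562/IM against K562 and 0.76 in the labelled libraries against K562/IM. Between the labelled libraries and K562/IM, PTCD3 was lower (-0.43), whereas CHCHD1 (0.91) and AURKAIP1 (0.42) were higher. With lycorine in K562, CHCHD1 was lower (-0.79) and the other 4 did not pass.

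Factors that assemble or serve the mitochondrial ribosome moved in the same direction in K562/IM. Of 28 assembly factors tested, 22 were lower and 1, the GTPase NOA1 (log2 fold change 0.40), was higher (78.6% and 3.57%, against 27.1% and 30.1% of all genes tested). The endoribonuclease YBEY (-1.37), the 12S rRNA methyltransferase TFB1M (-1.06), the ribosome-binding factor RBFA (-1.02) and the pseudouridine synthase family member RPUSD4 (-0.86) were among the lower ones. C1QBP had a log2 fold change of -0.97. Of 17 translation and RNA stability factors, 12 were lower (70.6%) and 0 higher, among them the RNA-binding protein SLIRP (-1.28) and the elongation factors TSFM (-0.87) and GFM1 (-0.54).

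In K562+L, 6 of the 28 assembly factors were higher and 4 lower (21.4% and 14.3%), which is near the 18.2% and 19.0% of all genes tested. The GTPase GTPBP10 (0.78) and the helicase DHX30 (0.79) were higher, and MALSU1 (-0.76) and RBFA (-0.52) lower. Of the 17 translation factors 3 were higher (17.6%), with GFM1 (0.43) and MTIF2 (0.37) the clearest, and 3 lower (17.6%), with the formyltransferase MTFMT (-0.83) and MTIF3 (-0.42) the clearest.

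The labelled libraries against K562/IM gave 10 assembly factors higher and 6 lower (35.7% and 21.4%, against 33.2% and 33.6% of all genes tested). YBEY rose from 2.54 ± 0.230 to 10.0 ± 0.485 CPM (log2 fold change 2.0), and RBFA had a log2 fold change of 0.95. The 12S rRNA chaperone ERAL1 fell from 93.9 ± 5.44 to 38.7 ± 3.0 CPM (-1.26), and MPV17L2 had a log2 fold change of -1.27. Of the translation factors 3 were higher, with the initiation factor MTIF3 at 1.22 and the insertase OXA1L at 0.75, and 6 were lower (17.6% and 35.3%), with GUF1 at -0.91 and GFM1 at -0.76.

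Regulators of nuclear genes for mitochondria and of mitochondrial transcription were tested for 12 of 13 genes, since PPARGC1A did not pass the filter. In K562+L 4 were higher (33.3%) and 0 lower, against 18.2% and 19.0% of all genes tested. MYC, a transcription factor that drives ribosome production, went from 141 ± 15.7 to 236 ± 13.4 CPM (log2 fold change 0.74), with PPRC1 at 0.44. In K562/IM 7 were lower than in K562 (58.3%) and 0 higher, against 27.1% and 30.1% of all genes tested. Among the lower ones were the mitochondrial transcription factor TFB2M (-0.85) and the elongation factor TEFM (-0.50). Between the labelled libraries and K562/IM, 7 were lower and 3 higher. The mitochondrial DNA-packaging factor TFAM fell from 151 ± 12.4 to 62.7 ± 4.23 CPM (-1.25), and MYC (-1.16), PPRC1 (-1.38) and PPARGC1B (-2.05) fell as well, whereas TEFM (0.54) and NRF1 (0.53) rose. NRF1 is a transcription factor of nuclear genes for mitochondria. Transcript levels say nothing of the activity of these factors.

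Against untreated K562, the labelled libraries had 17 assembly factors lower and 2 higher (60.7% and 7.14%, against 27.8% and 28.2% of all genes tested). ERAL1 (-1.65), MPV17L2 (-1.59), C1QBP (-1.39) and the RNA-binding protein GRSF1 (-1.22) were lower, and YBEY (0.59) and NOA1 (0.48) higher. Of the translation factors 10 were lower, with GFM1 (-1.35), LRPPRC (-1.08), GUF1 (-1.04) and SLIRP (-1.02) past a log2 fold change of 1, and MTIF3 (0.87) and OXA1L (0.35) were higher. Of the regulators 7 were lower and 0 higher, led by PPRC1 (-1.78), PPARGC1B (-1.77), TFAM (-1.57), TFB2M (-1.48) and MYC (-1.33).

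The difference between the lines was positive for 6 assembly factors and negative for 7 (21.4% and 25%, against 29.9% and 31.7% of all genes tested). RBFA (1.45) and YBEY (1.65) were on the positive side, and ERAL1 (-1.39), FASTKD2 (-1.17) and DHX30 (-1.06) on the negative. Of the translation factors it was positive for 4, with MTIF3 at 1.62 and OXA1L at 0.94, and negative for 6, with GFM1 at -1.21, LRPPRC at -1.11 and GUF1 at -1.08. Of the regulators it was positive for 3, with NRF1 at 0.69 and ESRRA at 0.44, and negative for 8, with PPARGC1B at -2.72, MYC at -1.93, PPRC1 at -1.85 and TFAM at -1.57.

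Of the 13 genes with the YY1 motif, 12 were lower in K562/IM, against 49 of the 56 without it. In the difference between the lines, 2 of the 13 were higher, MRPS24 among them, and 30 of the 56. Of the 11 with the ETS motif, 8 were lower in K562/IM, against 53 of the 58 without it. These counts are given with no test. Of all genes tested, 27.1% were lower in K562/IM, and 29.9% were higher in the difference between the lines.

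The cytosolic ribosomal proteins, which form the ribosome that makes the proteins above, are set beside them. In K562/IM against K562, all 79 cytosolic genes were lower (median log2 fold change -0.83), where 27.1% of all genes tested were (median 0.042). In K562+L, 68 of 79 were lower and 0 higher (median -0.60), against 19.0% and 18.2% of all genes tested (median -0.00012). In the labelled libraries against K562/IM all 79 were higher (median 1.18), against 35 of the 78 mitochondrial genes and 33.2% of all genes tested. Against K562, 10 cytosolic genes were higher and 1 lower (median 0.31), whereas 46 mitochondrial genes were lower. Of all genes tested there, 28.2% were higher and 27.8% lower. The difference between the ribosomes was not tested. The cytosolic genes took 10.2 to 13.2% of all counts in the labelled libraries and 5.95 to 10.7% in the other groups, and the part of this share in the scaling was not tested.

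Exons of 34 of the 78 genes overlap with another protein-coding gene, and reads from the pair may be uncertain where strand was not used in counting. In K562/IM, 29 of these 34 were lower and 39 of the other 44, where 27.1% of all genes tested were. In the labelled libraries against K562/IM, 12 of 34 were higher and 7 lower, and of the other 44, 23 were higher and 10 lower. Of all genes tested in that comparison, 33.2% were higher and 33.6% lower.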

How the data were processed

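Messenger RNA was measured in 12 libraries, grouped by the cell line and treatment in their sample labels. The authors deposited an estimated count for each gene symbol in each library, not normalized and already in whole numbers, where plain counts had been planned for. The submitters' processing notes name FastQC, STAR, StringTie and DESeq2 and the build hg38, and versions and roles are not given in the sources used here. Of 23289 values from 1 to 25, 67.9% were multiples of 4 or exceeded one by 1 (52.0% of the whole numbers from 1 to 25 are), so that 1 fragment may be worth about 4 counts and counting noise may be larger than the totals of 75093844 to 107344598 counts give.

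R 4.3.3 and edgeR 4.0.16 were used, with DESeq2 1.42.0 as an alternative. For each pair of groups, low counts were removed with filterByExpr at a minimum count of 10 over the 6 libraries. TMM normalization and edgeR's quasi-likelihood test followed, and p was adjusted by the Benjamini-Hochberg method over all genes tested. A gene was called at an adjusted p under 0.05, and another rule added an absolute log2 fold change over 1. CPM used TMM over the 12 libraries, and standard errors came from the fold change and the F statistic. All 78 members and 18997 of the 19447 symbols matched GENCODE release 29 (GRCh38), which gave positions, lengths and GC content. Genes of like length and level had 1106 to 6387 bases and 24.7 to 155 CPM. The steps were tested on simulated counts.

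The members, the gene lists and the tests were chosen with earlier results of these data known. Named members are, in each comparison, up to 10 called ones with the smallest p in each direction (5 in the interaction), those called past a log2 fold change of 1, and the 3 highest and 3 lowest per kilobase in K562. Named factors and regulators are those called past that size and the 2 with the smallest p in each direction. Alternatives changed the test, the scaling, the filter, the thresholds, the length and the set of libraries fitted, added the replicate number as a block, left out each library, or divided counts by 4. A covariate for an axis along which libraries of a group differ was added after seeing the data. Groups of 3 are too small to test for outlying libraries, and an exact test of 3 against 3 cannot go below 0.1. The labels name no batch. A marker gene within these rules is not reported here.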

Additional observations from a re-analysis of the deposited data

Results flagged for a closer look

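The difference between the effects of lycorine in the lines, as labelled, passed the interaction test (edgeR, adjusted p under 0.05 over all genes) for 35 genes in the positive and 9 in the negative direction. Of all genes tested 29.9% and 31.7% did. On the log2 scale, with positive values for a higher effect in the resistant line, the clearest were 1.47 for MRPS36, 0.77 for MRPL45, 0.87 for MRPS9, 1.32 for MRPS15 and 1.72 for MRPS24. In the negative direction they were -0.79 for MRPL3, -0.76 for MRPS31, -0.51 for MRPS35, -0.75 for MRPS2 and -0.76 for MRPL24. These values rest on the group label of the libraries labelled K562/IM+L.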

How the results depend on the processing

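Of 1388 values of named members over the alternatives, 1315 kept direction and call, 73 kept direction and lost the call, and 0 changed direction. These members were named because they were called in the main fit of the same data, which makes keeping direction and call likely. The stricter thresholds used the main fit, so that no direction could change there. With a log2 fold change over 1 as well, the counts of called members were 0 higher and 0 lower in K562+L against K562, 9 lower in K562/IM against K562, 4 higher and 1 lower between the group labelled K562/IM+L and K562/IM, and 10 lower between the labelled group and K562. At an adjusted p under 0.01 they were 2 higher and 5 lower in K562+L, 23 higher in the labelled libraries against K562/IM, and 5 lower in the interaction. Scaling to the total count alone gave 2 higher in K562/IM, 22 higher in the labelled libraries against K562/IM, 1 higher in these against K562, 17 lower in the interaction, and a summed level of 5480 CPM in K562/IM. Upper-quartile scaling gave 4 higher and a fit of all 12 libraries gave 1 higher in the labelled libraries against K562. A covariate for the axis between libraries gave 1 higher in K562/IM, 3 higher in the labelled libraries against K562 and 14 lower in the interaction. The longest transcript as length gave medians of 50.8, 41.0, 31.4 and 32.1 CPM per kilobase in K562, K562+L, K562/IM and the labelled group. The cause of these shifts was not tested, except that a stricter threshold keeps fewer genes by construction.

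Between same-numbered libraries, the correlations of the deviations from the group means ran from -0.52 to 0.14. These deviations also went with GC content and length, so that the correlations cannot decide whether the libraries were paired. With the replicate number as a block, 3 members were higher and 13 lower in K562+L, and no other count moved by over 1.5 times.

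With 1 library left out, the counts ran from 2 to 6 higher and 5 to 35 lower in K562+L, from 0 to 1 higher and 61 to 73 lower in K562/IM, from 25 to 45 higher and 13 to 18 lower in the labelled libraries against K562/IM, from 0 to 3 higher and 38 to 50 lower in these against K562, and from 28 to 43 higher and 7 to 10 lower in the interaction. In K562+L the lower count fell to 5 without K562+L replicate 1, 7 without K562+L replicate 3 and 10 without K562 replicate 2. In the labelled libraries against K562 the higher count was 3 without replicate 3 of the labelled group.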
